A study of Mus musculus with 8 samples.

Results

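Heat shock-high β-cells are the small share of insulin cells in mouse islets that carried high levels of Hspa1a and Hspa1b, the transcripts of the inducible Hsp70 chaperone. They were picked from all 8 single-cell libraries by a fixed rule. A barcode was kept with 200 to 5500 detected genes in replicate 1 or 200 to 6500 in replicate 2, at most 10% mitochondrial transcripts and at least 5000 unique molecular identifiers (UMIs, each standing for 1 captured transcript). A kept barcode counted as a β-cell where Ins1 and Ins2 made up at least 10% of its UMIs and at least 95% of those of the hormone genes Ins1, Ins2, Gcg, Sst, Ppy and Pyy. A β-cell counted as heat shock-high where Hspa1a and Hspa1b together reached 20 per 10000 UMIs. By this rule 335 of 5940 β-cells (5.64%) were heat shock-high. The other 5605 β-cells of the same libraries were the comparison.

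The islets came from male C57BL/6 mice (C57BL6/J in the methods of the study) aged 12 to 16 weeks. For each of 2 replicates the islets of 10 mice were pooled and then divided over 4 conditions of 18 h each, namely untreated, the cytokines IL-1β and IFN-γ, the same cytokines with the nitric oxide synthase inhibitor NMMA, and NMMA alone. Each library therefore stands for 1 culture from a pool of animals, and the p-values below refer to these libraries of 2 pools, not to further mice. In the edgeR tests below, the spread estimated for a gene was drawn toward that of the other genes tested. Very small p-values there are therefore no measure of the spread between pools. The libraries held 26549922 to 50731370 UMIs over 17426 barcodes, of which 10876 passed the limits on genes and mitochondrial transcripts. In total 34 barcodes recurred between libraries, 3 of them in β-cells and 0 in heat shock-high cells. The barcodes with the highest scores of a doublet caller were marked up to an assumed doublet rate, 200 in all, where the caller's own threshold marked 99. Marked barcodes made up 1.49% of the heat shock-high cells and 2.32% of the other β-cells.

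The heat shock response is the transcriptional program that cells switch on when proteins misfold. The factor HSF1 is released from chaperones, forms trimers and binds heat shock elements, inverted repeats of the unit NGAAN, upstream of genes for Hsp70, small heat shock proteins, Hsp40 (Dnaj) proteins and the partners of Hsp90. In β-cells, which fold large amounts of proinsulin, IL-1β and IFN-γ induce the nitric oxide synthase Nos2, guanylate binding proteins and antigen presentation genes, while nitric oxide inhibits mitochondrial respiration.

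Heat shock elements can be read in the 150 bases before a RefSeq start of 5 of the heat shock genes, shown here as genes that hold a match. Hspa1a, Hspa1b and Hspb1 chose or marked the cells, and Hspe1 and Hsph1 stood among the other chaperones raised in every library. Dnajb1, which also marked the cells, and the cochaperone gene Bag3 were raised in every library too, and 0 matches were found in their windows. A 3-unit element was searched on both strands as GAANNTTCNNGAA or TTCNNGAANNTTC with at most 1 mismatch in the 9 fixed letters, and overlapping matches were merged. The capitals mark the merged match. The sequences are from RefSeq (GRCm38.p6) and run 5′ to 3′ along the gene's own strand, ending at the base before 1 annotated RefSeq start of the gene. They lie at chr17:34972157-34972306 (minus strand) for Hspa1a, chr17:34959239-34959388 (minus strand) for Hspa1b, chr5:135887769-135887918 (plus strand) for Hspb1, chr1:55087998-55088147 (plus strand) for Hspe1 and chr5:149636337-149636486 (minus strand) for Hsph1.
Hspa1a: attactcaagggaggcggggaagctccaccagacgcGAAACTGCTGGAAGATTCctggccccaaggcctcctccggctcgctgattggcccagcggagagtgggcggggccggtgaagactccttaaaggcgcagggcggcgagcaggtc
Hspa1b: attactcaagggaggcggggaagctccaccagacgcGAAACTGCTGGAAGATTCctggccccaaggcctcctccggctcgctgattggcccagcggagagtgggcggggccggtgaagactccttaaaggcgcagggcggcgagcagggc
Hspb1: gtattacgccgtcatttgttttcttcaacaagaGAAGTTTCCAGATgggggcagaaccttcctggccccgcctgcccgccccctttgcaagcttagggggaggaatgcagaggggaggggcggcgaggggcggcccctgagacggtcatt
Hspe1: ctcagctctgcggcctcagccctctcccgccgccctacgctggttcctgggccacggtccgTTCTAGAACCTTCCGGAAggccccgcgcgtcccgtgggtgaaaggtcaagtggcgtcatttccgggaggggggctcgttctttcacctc
Hsph1: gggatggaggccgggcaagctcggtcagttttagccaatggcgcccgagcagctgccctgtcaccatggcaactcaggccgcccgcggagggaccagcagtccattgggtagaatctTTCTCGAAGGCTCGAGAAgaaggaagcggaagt

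Hspa1a and Hspa1b, near-identical neighbours on chromosome 17, differed at 1 of the 150 printed positions and shared the same match at -114 to -97 from the start. The match lay at -117 to -105 in Hspb1, at -89 to -72 in Hspe1 and at -33 to -16 in Hsph1. Over all genes with a promoter window of 300 bases, some of which have several windows, 2202 of 27025 (8.15%) held such a match. Among Hsp and Dnaj genes with a window it was 14 of 61 (23%). Among the genes listed as HSF1-type outside Hsp and Dnaj it was 9 of 30 (30%), namely Ahsa1, Cct2, Cct5, Cct6a, Cdc37, Chordc1, Fkbp4, Ptges3 and Zfand2a. The match was found in 88 of the 1167 genes with a window that were higher in heat shock-high cells (7.54%) and in 73 of the 1314 lower in them (5.56%), against 561 of 9143 among all genes tested (6.14%). A match to these letters describes the sequence and does not show binding.

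Hspa1a plus Hspa1b chose the cells, so their levels are a description. In the 335 cells they ranged from 20.4 to 406 per 10000 UMIs, with a median of 45.6 and quartiles of 28.9 and 84.8. The library medians were 35.8 and 47.6 in untreated replicates 1 and 2, 46.6 and 41.01 with NMMA, 35.8 and 49.8 with the cytokines, and 66.6 and 52.00 with the cytokines plus NMMA. The medians of the other β-cells were 0.697 and 0.732 in cytokines replicates 1 and 2, and 0 in every other library. In cytokines replicates 1 and 2, 33.9% and 31.4% of the other β-cells had 0 UMIs of both genes. In the remaining libraries that share was 64.0% to 88.2%. The comparison cells thus also held more Hsp70 transcripts with the cytokines alone. The near-identical sequences of the 2 genes make the split of reads between them uncertain, and Hspa1a took 52.2% to 76.4% of their summed UMIs by library.

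The other markers of the label were present too. In CPM (a gene's UMIs in the summed cells of a library, scaled to a common library total after TMM adjustment), Hspb1, a small heat shock protein that holds unfolded clients, was at 233 to 1037 CPM in heat shock-high cells and 3.52 to 118 in the other β-cells. Dnajb1, the Hsp40 that delivers clients to Hsp70, was at 409.9 to 1014 against 14.9 to 128 CPM. For both, the 8 libraries of heat shock-high cells did not overlap with the 8 of other cells. Hspa1a itself was 30.1 to 342 times and Hspa1b 20.1 to 198 times the level of the other β-cells of the same library.

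The remaining Hsp and Dnaj genes were left out of all tests, and are described by their ratios. Of 48 Hsp and Dnaj genes at 10 CPM or more outside the 4 markers above, 10 were higher in heat shock-high cells in all 8 libraries and 2, Hspa4 and Dnajc14, were lower in all 8. Of the 6693 other genes at that level, 680 (10.2%) were higher and 541 (8.08%) lower in all 8. Hsph1, the Hsp110 that recharges Hsp70 with ATP, had a median ratio over libraries of 5.46 (2.92 to 15.01). Dnaja1, another Hsp40, had 5.37 (3.83 to 9.38). The cytosolic Hsp90 genes Hsp90aa1 and Hsp90ab1 had 3.71 (1.61 to 5.67) and 2.73 (1.55 to 3.68). The largely constitutive Hsc70 gene Hspa8 had 2.74 (1.24 to 4.83), and the mitochondrial chaperonin pair Hspe1 and Hspd1 had 3.15 (1.996 to 5.20) and 1.75 (1.41 to 2.58). Chaperones of the endoplasmic reticulum, named here for their known location after their values were seen, went both ways. Hspa5 (BiP) was higher in 4 and lower in 4 libraries with a median ratio of 0.937 (0.736 to 1.23), and Hsp90b1 (GRP94) had 1.01 (0.903 to 1.29). Dnajb9 had 1.29 (0.952 to 1.36) and was higher in 7 of 8 libraries, whereas Dnajb11 and Dnajc10 had 0.758 (0.680 to 1.17) and 0.527 (0.213 to 1.40) and were lower in 7 of 8. Dnajc3 had 0.813 (0.704 to 1.46).

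Heat shock-high cells were found in every library, at shares that differed between the replicates. In replicate 1 they were 18 of 1622 β-cells untreated (1.11%, 95% exact Clopper-Pearson interval 0.659 to 1.75), 20 of 669 with NMMA (2.99%, 1.84 to 4.58), 59 of 1087 with the cytokines (5.43%, 4.16 to 6.95) and 41 of 621 with the cytokines plus NMMA (6.60%, 4.78 to 8.85). In replicate 2 they were 48 of 536 untreated (8.96%, 6.68 to 11.7), 52 of 574 with NMMA (9.06%, 6.84 to 11.7), 58 of 453 with the cytokines (12.8%, 9.87 to 16.2) and 39 of 378 with the cytokines plus NMMA (10.3%, 7.44 to 13.8). All 4 shares of replicate 2 were above all 4 of replicate 1. The pool of mice, the limit on genes and the gene list differed together between the replicates and cannot be told apart. In untreated replicate 1 the rule called 1622 of 2149 barcodes within the limits on genes and mitochondrial transcripts β-cells. In untreated replicate 2 it called 536 of 1798. The intervals cover counting error only.

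The share averaged 8.79% ± 3.39 (SD, n = 4) in the libraries with cytokines and 5.53% ± 4.09 (SD, n = 4) in those without, and the difference of 3.26 percentage points did not pass the test (two-sided exact permutation test, p = 0.257). Within replicate 1 the difference was 3.97 points and within replicate 2 it was 2.55 points. Permuting only within replicates gave an exact two-sided p of 0.0556, the smallest that this design allows. Single conditions, with 2 libraries each, were not tested against each other.

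**Figure D1:**
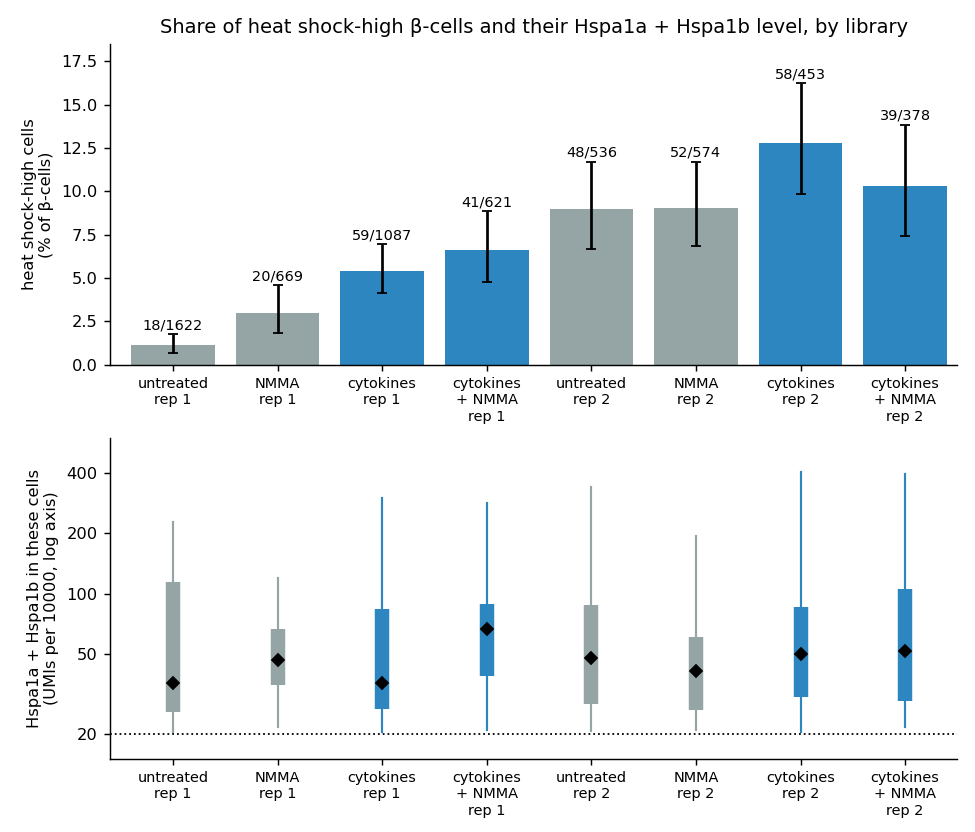
Top: heat shock-high cells as a percentage of the β-cells of each library (bars from 0; error bars, 95% exact binomial interval; cell counts above). Bottom: Hspa1a plus Hspa1b per 10000 UMIs in the heat shock-high cells (log axis; diamond, median; thick bar, quartiles; thin line, lowest to highest; dotted line, the threshold of 20). Shares run from 1.11% to 12.8% with the 4 bars of replicate 2 above those of replicate 1, while the medians of the bottom panel lie between 35.8 and 66.6.

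Heat shock-high cells held fewer transcripts, of fewer genes, than the other β-cells of their library. The median UMI count per cell was 13644.5 to 22887 over the 8 libraries (median 18817), against 20604.5 to 30495 (median 28311) in the other cells, a ratio of 0.665. After every cell was thinned to 5000 UMIs, heat shock-high cells still showed fewer genes, a median of 1291 (1217 to 1406.5) against 1514 (1454 to 1620). Both were lower in 8 of 8 libraries (two-sided exact sign-flip permutation test, p = 0.0078, the smallest possible, and 0.0156 adjusted over 6 measures). The rule divides Hspa1a plus Hspa1b by the UMIs of the cell. A low UMI count thus makes it easier to pass the threshold, and the UMI comparison is not independent of the rule. Before thinning, the median number of genes per cell was 2529.5 to 3456 in heat shock-high and 3794.5 to 4888 in other cells.

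Ribosomal protein transcripts took a larger share of the UMIs, 11.3% (8.45 to 12.9) against 7.98% (6.66 to 10.7), higher in 8 of 8 libraries (exact permutation test, adjusted p = 0.0156). The mitochondrial share, which is high in many damaged cells, was 3.45% (2.71 to 3.79) against 4.02% (3.11 to 4.79) and lower in 6 of 8, which did not pass (exact adjusted p = 0.105). The insulin share was 39.6% against 38.0% (exact adjusted p = 0.366) and that of the nuclear RNA Malat1 0.835% against 0.824% (exact adjusted p = 0.547), each higher in 4 of 8 libraries. Smaller cells, less RNA per cell and lower capture cannot be told apart here.

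Outside the Hsp and Dnaj genes, many transcripts differed between the heat shock-high and the other β-cells of the same library. UMIs were summed per library and side, giving 16 sums, and tested with edgeR's quasi-likelihood test with the library as a block. Averaged over the 4 conditions, 1472 of 11751 genes tested were higher in heat shock-high cells (12.5%) and 1682 were lower (14.3%) at a Benjamini-Hochberg adjusted p under 0.05. The median log2 difference over all genes was -0.13. With sums scaled to their total UMIs in place of TMM the median moved to -0.37 and the split to 780 higher and 3822 lower, so directions of genes with small differences are relative to the scaling.

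Genes of the HSF1 type other than Hsp and Dnaj were higher as a group. Of the 33 tested, 23 were higher and 1 lower in heat shock-high cells, with a median log2 difference of 0.73 (18 higher and 4 lower under total UMI scaling). Bag3 (GENCODE vM21, chr7:128523616-128546981 of GRCm38), the cochaperone that couples Hsp70 to autophagy, was at 88.8 and 93.3 CPM in the heat shock-high cells of untreated replicates 1 and 2 against 14.7 and 21.7 in the other cells. With NMMA it was at 117 and 76.8 against 20.9 and 28.1, with the cytokines at 97.2 and 120.4 against 28.9 and 36.8, and with the cytokines plus NMMA at 169 and 112 against 41.7 and 49.3 CPM. The 2 sets of 8 values did not overlap, and the log2 difference was 1.89 ± 0.10 (SE; edgeR, adjusted p = 2.7e-71).

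The polyubiquitin gene Ubb, which supplies ubiquitin under stress, was at 2531 to 5984 (median 3617) CPM in heat shock-high and 778 to 3820.0 (median 1470.0) in other cells. It was higher in 8 of 8 libraries although the ranges overlap, with a log2 difference of 1.29 ± 0.05. Ahsa1, which stimulates the Hsp90 ATPase, was at 60.6 to 151 against 25.2 to 95.1 CPM (1.23 ± 0.10; edgeR, adjusted p = 1.6e-32). The same list held Rgs2, a regulator that shortens G protein signals, at 65.6 to 183 (median 109) CPM against 15.1 to 23.7 (median 18.1), without overlap.

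Immediate early genes, which are transcribed within minutes of a stimulus and have short-lived mRNAs, were 14 higher and 1 lower of 25 tested with a median log2 difference of 0.70 (13 and 2 under total UMI scaling). Without untreated replicate 2 the median was 0.36, with 10 higher. In the 4 libraries with cytokines 19 were higher and 1 lower (median 1.13), and in the 4 without 10 and 1 (median 0.08). Jun, a subunit of the AP-1 factor, was at 404 to 1422 (median 684) CPM in heat shock-high and 101 to 234 (median 185) in other cells. The groups did not overlap and the log2 difference was 2.20 ± 0.06. Klf6, a Krüppel-like transcription factor (chr13:5861482-5870394), was at 78.2 to 267 (median 103) CPM against 8.93 to 52.1 (median 22.3), again without overlap (2.56 ± 0.10). Nr4a1, an orphan nuclear receptor induced by calcium and cAMP, was at 16.04 to 40.9 against 1.95 to 20.4 CPM (2.13 ± 0.21; edgeR, adjusted p = 3.6e-23).

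The 12 genes with the largest rise, at a mean level of 10 CPM or more and higher in all 8 libraries, were Phlda1, Klf6, Rgs2, Slc5a3, Rgs16, Txnip, Gem, Gadd45b, Trim2, Jun, T2 and Fbxo30. Phlda1, a pleckstrin homology domain protein, had the largest log2 difference among them (2.89 ± 0.26), with 21.3 to 238 (median 52.9) CPM against 5.32 to 13.2 (median 9.38). Txnip, the thioredoxin-interacting protein that rises with glucose in β-cells, was at 73.5 to 263 (median 140.1) CPM against 19.3 to 53.7 (median 25.8), without overlap (2.28 ± 0.10). Slc5a3, the myo-inositol transporter induced by hypertonicity, was at 23.3 to 52.8 against 2.52 to 9.13 CPM (2.46 ± 0.19), though it overlaps Mrps6 on the same strand, and T2 overlaps another gene model, so reads can be shared. Gadd45b, a stress-induced gene, was at 48.7 to 316 against 4.81 to 128 CPM (2.24 ± 0.11). Sesn1, a sestrin that p53 induces, was at 12.3 to 27.02 against 3.37 to 7.60 CPM without overlap (1.74 ± 0.23; edgeR, adjusted p = 3.2e-12).

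**Figure D2:**
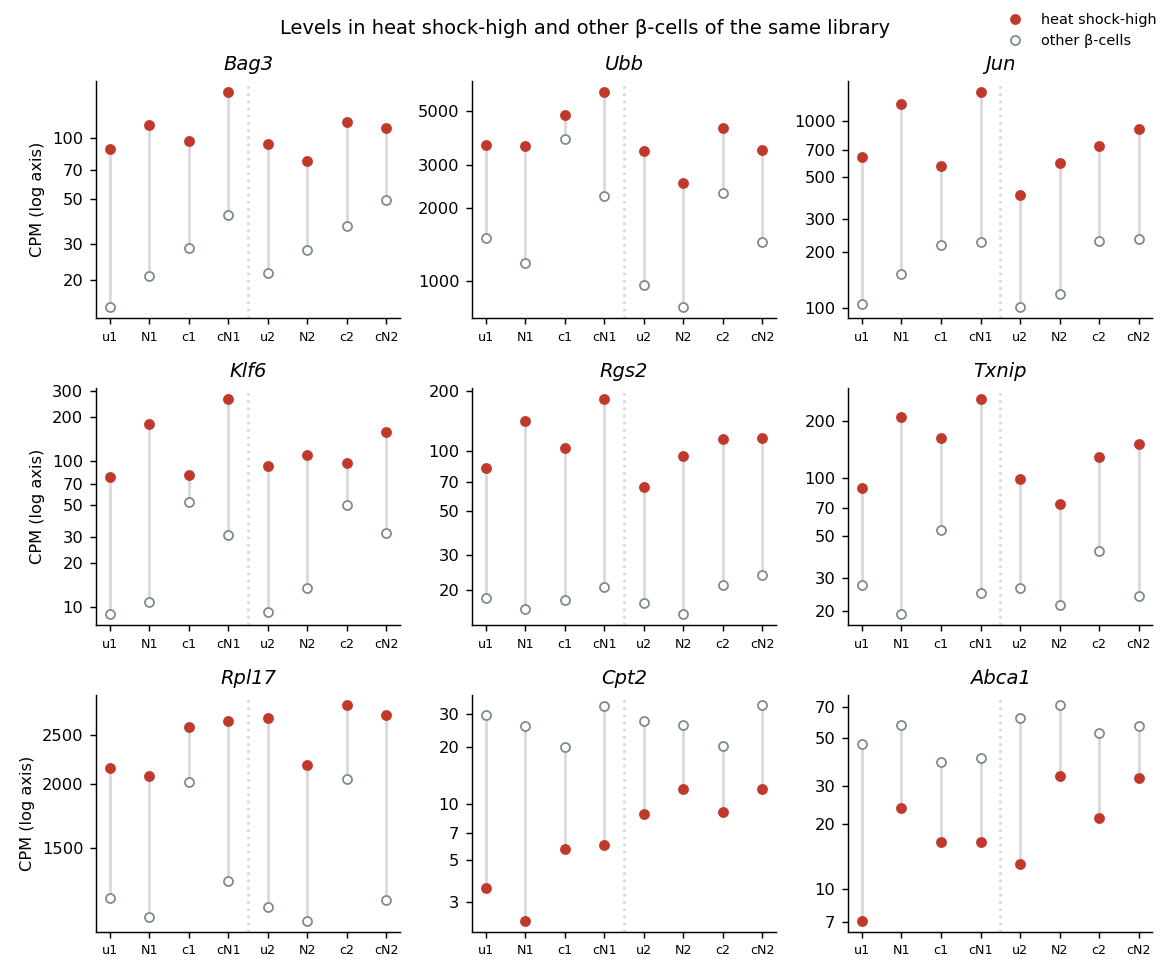
Levels of 9 genes (CPM, log axes) in the heat shock-high (filled red) and other β-cells (open grey) of each library; u, untreated; N, NMMA; c, cytokines; cN, cytokines plus NMMA; 1 and 2, the replicates. Bag3, Ubb, Jun, Klf6, Rgs2, Txnip and Rpl17 are higher and Cpt2 and Abca1 lower in the heat shock-high cells of all 8 libraries.

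Ribosomal protein genes were the list with the largest share of members higher. Its 95 genes were taken by symbol and included 10 Rps6k kinases. Of the other 85, 83 were higher in heat shock-high cells, and in the whole list 1 gene was lower. The median log2 difference of the list was 0.62, and under total UMI scaling 79 were higher and 5 lower. Rpl17, a protein of the large subunit, was at 2072 to 2854 (median 2622) CPM in heat shock-high and 1080.0 to 2052 (median 1192) in other cells, without overlap (0.89 ± 0.05; edgeR, adjusted p = 9.1e-64).

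Nuclear genes of oxidative phosphorylation were 53 higher and 7 lower of 86 (median 0.29), and translation factors 12 higher and 4 lower of 22 (median 0.26). Under total UMI scaling these became 30 and 19, and 8 and 7. Atp5h, an ATP synthase subunit, was at 495 to 632 against 288 to 422 CPM (0.77 ± 0.06). Cox7a2l, which helps assemble respiratory supercomplexes, was at 509 to 776 against 283 to 495 (0.76 ± 0.06), and neither gene's groups overlapped. Eef1b2, an exchange factor of translation elongation, gave 0.68 ± 0.06. Of the 13 mitochondrially encoded genes 5 were higher and 3 lower, but 1 and 8 under total UMI scaling.

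**Figure D3:**
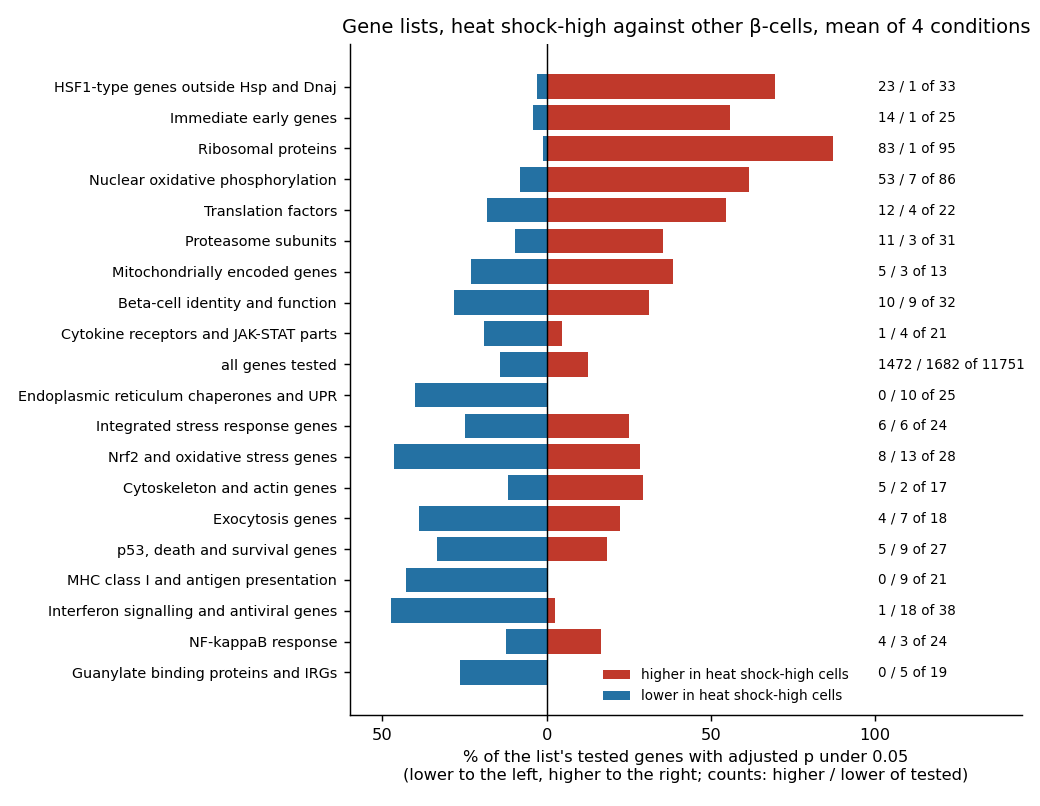
Percentage of each list's tested genes with an adjusted p under 0.05 in heat shock-high against other β-cells, averaged over the 4 conditions (edgeR, TMM scaling), higher to the right and lower to the left, with the counts. Ribosomal proteins reach 83 higher of 95 and HSF1-type genes 23 of 33, against 12.5% higher and 14.3% lower over all genes tested.

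The 12 genes with the largest fall by the same rule were Ldha, Ccrl2, Cpt2, Tpst1, Ttyh1, Abca1, Fam84b, Igfals, Pigr, Gtf2b, Gphn and Ank3. Cpt2, the carnitine palmitoyltransferase of the inner mitochondrial membrane, was at 2.38 to 11.9 (median 7.39) CPM in heat shock-high and 19.9 to 33.2 (median 26.8) in other cells. The groups did not overlap and the log2 difference was -1.72 ± 0.20. Abca1, the exporter of cellular cholesterol, was at 7.11 to 33.5 (median 18.9) CPM against 38.6 to 70.97 (median 54.9), also without overlap (-1.44 ± 0.14). Gtf2b, the general transcription factor TFIIB, was at 4.76 to 12.98 against 14.4 to 39.05 CPM (-1.34 ± 0.19; edgeR, adjusted p = 4e-11). Ldha, Ccrl2, Tpst1, Fam84b and Igfals had 0 UMIs in 1 or more of the heat shock-high sums. Ldha, the lactate dehydrogenase subunit that β-cells keep low, was at 0 to 24.1 CPM against 4.46 to 56.2, and its call was lost without the library block.

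Genes of the endoplasmic reticulum's unfolded protein response were not raised beside the cytosolic chaperones. Of 25 tested, 0 were higher and 10 lower by edgeR (median -0.14, next to -0.13 over all genes). Total UMI scaling gave 19 lower, and against other β-cells of matched depth 3 were higher and 6 lower. Hyou1, a chaperone of the reticulum, was at 105 to 160.1 CPM against 114 to 204, lower in 8 of 8 libraries (-0.37 ± 0.08). The protein disulphide isomerase Pdia4 was at 65.6 to 145 against 92.2 to 178, lower in 7 of 8 (-0.47 ± 0.09; edgeR, adjusted p = 1.1e-06).

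Genes of the integrated stress response, which lowers protein synthesis through eIF2α, were 6 higher and 6 lower of 24. Ppp1r15a (GADD34), the phosphatase subunit that ends that response, was higher in 7 of 8 libraries (1.31 ± 0.11), and Slc3a2, an amino acid transporter subunit, was lower in 8 of 8 (-0.72 ± 0.08). Nrf2 and oxidative stress genes were 8 higher and 13 lower of 28. Among them the metallothionein Mt1 was at 2295 to 7374 against 779.9 to 7678 CPM, higher in 6 of 8 (0.83 ± 0.05), and thioredoxin Txn1 at 60.4 to 134 against 116 to 359, lower in 8 of 8 (-0.90 ± 0.09). Proteasome subunits were 11 higher and 3 lower of 31, but 3 and 8 under total UMI scaling.

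The differences were then taken apart by cytokine exposure, to see which of them heat shock-high cells showed in both settings. In the 4 libraries with cytokines 1163 genes were higher (9.9%) and 1087 lower (9.25%) in heat shock-high than in other β-cells. In the 4 libraries without, 1027 were higher (8.74%) and 838 lower (7.13%). Under total UMI scaling these became 641 and 2529, and 615 and 2001, and with DESeq2 the libraries without cytokines gave 884 higher and 377 lower. The difference between both was tested in the same fit, where 260 genes (2.21%) had a larger and 222 (1.89%) a smaller log2 difference with cytokines than without (98 and 161 with DESeq2). These 482 genes became 270 without cytokines replicate 2 and 316 without cytokines plus NMMA replicate 2. The separate values with and without cytokines were added after the data had been seen.

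Interferon-γ response genes were lower in the heat shock-high than in the other β-cells of the cytokine libraries. Of 19 guanylate binding proteins and immunity-related GTPases, which attack the vacuoles of intracellular pathogens, 17 were lower and 0 higher (median log2 difference -1.38, next to -0.08 over all genes). The lower count was 17 to 19 when any 1 library was left out, 15 against depth-matched cells and 10 without the library block. In the libraries without cytokines, where 10 of the genes had 0 UMIs on 1 side of a condition or more, 0 were lower. The change of the difference with cytokines passed for 0 of 19 by edgeR (2 at an unadjusted p under 0.05) and for 5 by DESeq2, the latter in the negative direction. Irgm1, one of these GTPases (chr11:48861968-48871683), was at 79.9 and 49.9 CPM in heat shock-high cells with the cytokines against 217 and 189.7, and at 96.6 and 173 against 396 and 349.6 with the cytokines plus NMMA. Its heat shock-high value was the lower one in 4 of 4 libraries, with a log2 difference of -1.57 ± 0.12 (edgeR, adjusted p = 2.5e-38).

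Gbp7 was at 109 and 53.2 against 151 and 163 CPM with the cytokines and at 163 and 161 against 314 and 407 with NMMA added (-1.07 ± 0.11). Gbp2 gave -1.15 ± 0.28 and did not pass (edgeR, adjusted p = 0.064), though it passed under 11 of 19 alternatives. Gbp4 gave -1.24 ± 0.11, and its call was lost without the library block, at a threshold of 10 per 10000, at a mitochondrial share of at most 5% and against depth-matched cells. Gbp4 also overlaps Gbp8 and Gbp9 on the same strand, so their reads can be mixed. Summed over the list, heat shock-high cells held 2049, 881, 2507 and 2637 CPM in cytokines replicates 1 and 2 and cytokines plus NMMA replicates 1 and 2, against 3769, 3387, 5285 and 6285 in the others. Without cytokines both sides were low, at 28.4 to 36.8 and 29.5 to 36.7 CPM.

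The broader interferon list had 32 lower and 0 higher of 38 in the cytokine libraries (median -1.03), and 3 higher and 5 lower in those without. The change passed in the negative direction for 7 and in the positive for 0, with 2 to 8 negative when any 1 library was left out. Cd274, which encodes the checkpoint ligand PD-L1, was at 95.5 and 55.7 CPM in heat shock-high cells with the cytokines against 243 and 230.2, and at 96.6 and 133 against 258 and 276 with NMMA added (-1.45 ± 0.12; edgeR, adjusted p = 1.6e-31). It was lower in the heat shock-high cells of all 4 cytokine libraries.

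Nos2, the inducible nitric oxide synthase, had 0 UMIs in the heat shock-high cells without cytokines. With the cytokines it was at 143 and 19.6 CPM against 176 and 170.2, and at 133 and 169 against 439 and 447 with NMMA added. It was lower in all 4 libraries, but the log2 difference of -1.43 ± 0.64 did not pass the test (edgeR, adjusted p = 0.35). Nfkbia, the NF-κB inhibitor that NF-κB itself induces, went the other way. It was at 982 and 305 against 281 and 202 CPM with the cytokines and 699 and 499 against 250.2 and 218 with NMMA added (1.28 ± 0.10), and it was higher in the heat shock-high cells of all 8 libraries. Of 24 NF-κB response genes tested in the cytokine libraries, 3 were higher and 7 lower (median -0.63). Over all genes 9.9% were higher and 9.25% lower there. Macrophage markers, whose cells also respond to IFN-γ, summed to 10.8 to 101 CPM (median 32.7) in heat shock-high and 32.6 to 285 (median 77.2) in other β-cells, lower in 8 of 8 libraries, and their part in the result was not tested.

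Antigen presentation genes of MHC class I were mostly lower in heat shock-high cells with the cytokines, and some of them were higher without. In the cytokine libraries 19 of 21 were lower and 0 higher (median -0.74). In the libraries without, 7 were higher and 1 lower (median 0.28, and 0.04 with 5 and 2 under total UMI scaling). The difference between them passed in the negative direction for 12 of 21 genes and in the positive for 0 by edgeR, and for 4 without the library block. Psmb8, an immunoproteasome subunit, was at 56.9 and 62.7 CPM in untreated heat shock-high cells against 37.3 and 40.1 in the others, and at 85.6 and 62.7 against 37.1 and 33.4 with NMMA. With the cytokines it was at 433 and 188 against 673 and 517, and with the cytokines plus NMMA at 409 and 224 against 725 and 574 CPM. Psmb8 was thus higher in heat shock-high cells in 4 of 4 libraries without cytokines and lower in 4 of 4 with them, a change of -1.89 ± 0.17 (edgeR, adjusted p = 1.6e-25). B2m, the light chain of MHC class I, gave 0.65 ± 0.09 without and -0.69 ± 0.08 with cytokines, and its change of -1.34 ± 0.12 was lost against depth-matched cells and without the library block.

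β-cell identity genes changed in the opposite direction. With cytokines 15 of 32 were higher and 5 lower in heat shock-high cells (median 0.19, and -0.05 under total UMI scaling). Without cytokines 2 were higher and 15 lower (median -0.34). The change was positive and passed for 16 genes and negative for 2, with 13 to 16 positive when any 1 library was left out and 7 without the library block. Mafa, a transcription factor of mature β-cells that drives insulin transcription (chr15:75745490-75748228), was at 217 and 210.0 CPM untreated and 186 and 145 with NMMA in heat shock-high cells. With the cytokines it was at 136 and 165, and with the cytokines plus NMMA at 116 and 208 CPM. In the other β-cells it was at 583 and 450.2, 279 and 236, 29.9 and 29.9, and 70.2 and 92.01 CPM in the same order. The heat shock-high ranges with and without cytokines overlapped, whereas in the other cells every value without cytokines was above every value with them. The log2 difference between the sides was -0.95 ± 0.11 without and 1.65 ± 0.11 with cytokines, a change of 2.59 ± 0.15 (edgeR, adjusted p = 6.1e-62).

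Ucn3, the urocortin that mature β-cells co-secrete with insulin, was at 110.2, 93.3, 76.1 and 74.6 CPM in heat shock-high cells without cytokines and at 83.99, 64.7, 55.9 and 64.2 with them, in the order untreated then NMMA, and cytokines then cytokines plus NMMA. The other cells held 155, 124, 123 and 98.3 without and 19.7, 17.3, 12.9 and 15.8 with. In every library without cytokines the heat shock-high value was the lower one and in every library with them the higher, a change of 2.52 ± 0.20 (edgeR, adjusted p = 3.3e-32). Slc2a2, the glucose transporter GLUT2, changed by 2.58 ± 0.30. The zinc transporter of insulin granules Slc30a8, the oxidoreductase gene Ero1lb and the transcription factor Pdx1 changed by 1.30 ± 0.15, 1.23 ± 0.14 and 1.23 ± 0.22. For these 6 genes the call held under each of the alternatives run, which covered scaling, tool, filters, thresholds, depth matching, the fit without the library block and each left-out library.

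**Figure D4:**
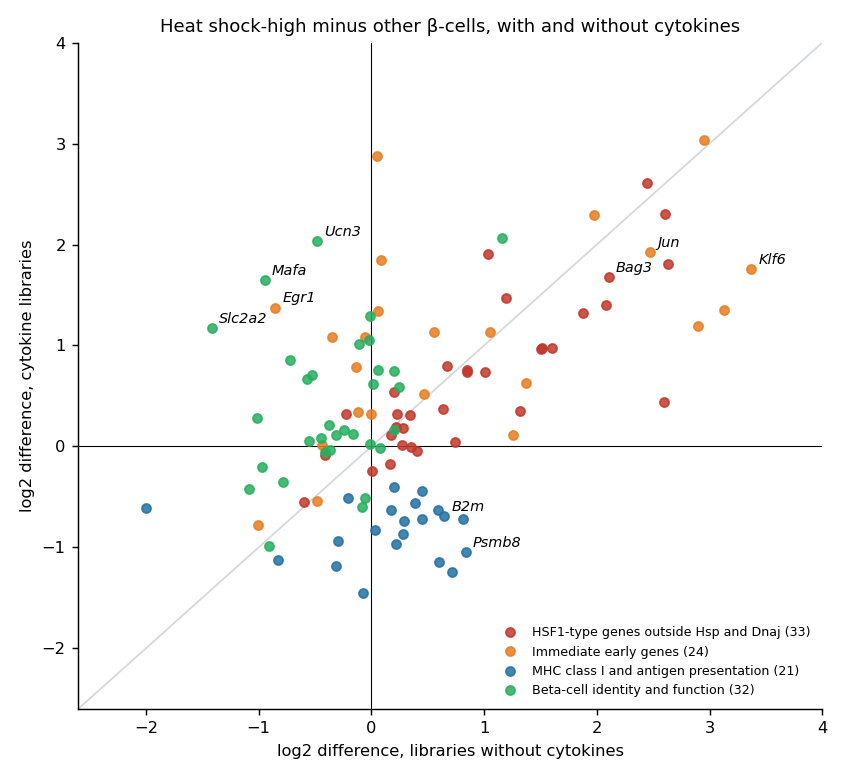
Log2 difference between heat shock-high and other β-cells in the 4 libraries without cytokines (horizontal) and the 4 with cytokines (vertical), 1 point per gene with at least 20 UMIs in heat shock-high cells, for 4 lists. HSF1-type genes lie mostly in the upper right, MHC class I genes below 0 on the vertical axis, and Ucn3, Mafa and Slc2a2 at -0.48, -0.95 and -1.42 without and 2.03, 1.65 and 1.17 with cytokines.

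The same genes varied with the amount of Hsp70 transcripts. The β-cells of the cytokine libraries were binned by Hspa1a plus Hspa1b per 10000 UMIs, into 0, above 0 to 5, 5 to 20, 20 to 40, 40 to 80, and 80 and over, which held 1071, 962, 309, 84, 57 and 56 cells. Guanylate binding protein and GTPase transcripts averaged 54.4, 45.8, 36.3, 26.2, 14.02 and 7.06 per 10000 over the 4 libraries from the lowest to the highest bin, with an SD of 21.2 in the lowest and 7.54 in the highest. MHC class I transcripts averaged 90.1, 81.7, 70.8, 56.3, 36.5 and 29.2. Over the 3 lowest bins both sums fell mainly with NMMA added. There the guanylate binding protein sums were 64.2, 53.4 and 38.2 in replicate 1 and 79.7, 61.8 and 35.8 in replicate 2. With the cytokines alone these sums were 38.2, 36.2 and 40.4, and 35.6, 31.9 and 30.6. The MHC sums with the cytokines alone were 91.9, 85.6 and 88.7, and 63.2, 60.6 and 60.1. Mafa plus Slc2a2 plus Ucn3 averaged 0.940, 0.794, 0.788, 1.33, 2.67 and 3.39, so they were lowest in the third bin and highest in the last. Without cytokines the bins held 2574, 566, 123, 63, 42 and 33 cells, the MHC sum stayed between 16.5 and 19.5, and the identity sum averaged 6.83, 6.28, 4.50, 3.48, 2.74 and 3.01. The 3 highest of these bins rested on 3, 2 and 2 libraries with at least 10 cells. The bins use the rule's own readout and are a description.

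**Figure D5:**
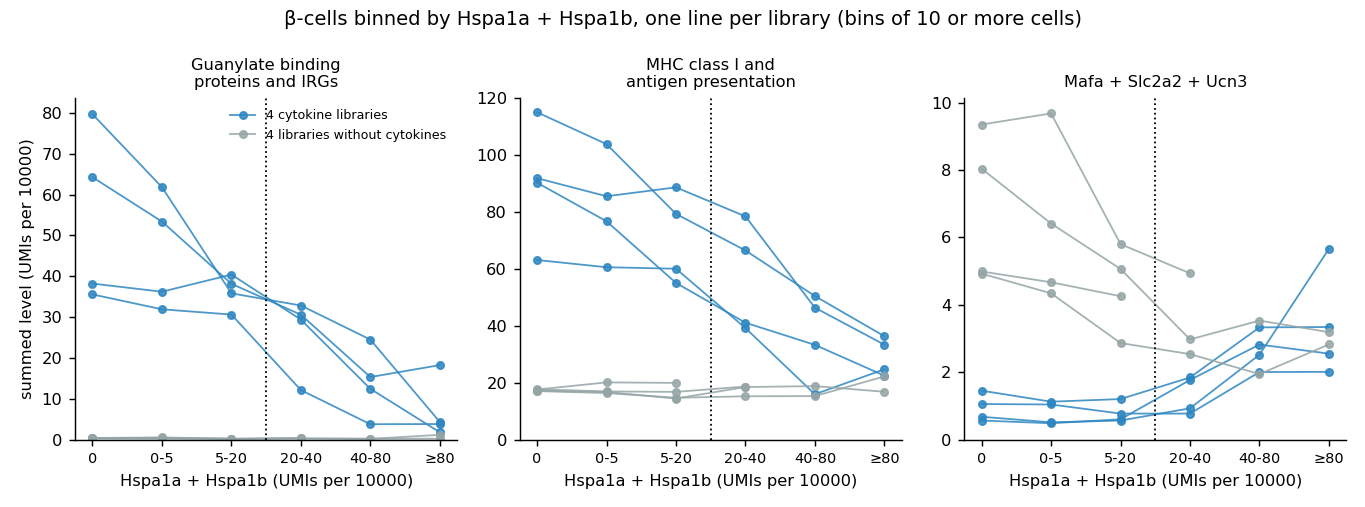
Summed UMIs per 10000 of guanylate binding proteins and immunity-related GTPases (left), MHC class I and antigen presentation genes (middle) and Mafa plus Slc2a2 plus Ucn3 (right), against Hspa1a plus Hspa1b per 10000 in bins of β-cells, 1 line per library and only bins of at least 10 cells, with and without cytokines. In the cytokine libraries the left sums average 54.4 in the lowest bin and 7.06 in the highest, and the right sums 0.940 and 3.39.

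The rule's threshold fell within the range where the averages of the cytokine libraries changed. In the cytokine libraries 36 cells lay just outside it, at 15 to 20 per 10000, and 29 just inside, at 20 to 25. The guanylate binding protein sums of these were 33.5 and 24.3, the MHC sums 70.8 and 62.1 and the sums of Mafa, Slc2a2 and Ucn3 0.748 and 1.17 per 10000. Without cytokines the 25 cells outside and 26 inside had MHC sums of 15.7 and 14.8 and identity sums of 3.30 and 3.10. Taken cell by cell, the median guanylate binding protein sum of heat shock-high cells was 13.6, 1.16, 12.1 and 2.47 per 10000 in cytokines replicates 1 and 2 and cytokines plus NMMA replicates 1 and 2, against 36.04, 29.9, 55.2 and 64.9 in the others. Of the heat shock-high cells 38 of 59, 49 of 58, 32 of 41 and 33 of 39 lay below the lower quartile of the other cells of their library. Their upper quartiles were 30.9, 8.09, 32.7 and 11.3, so the heat shock-high cells of a library differed widely among themselves.

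By the size of the change with cytokines, the 8 largest in the positive direction were Relb, Mafa, Slc2a2, Ucn3, Slitrk6, Adh1, Socs2 and Egr1, and in the negative direction S100a6, Rnd3, Defb1, Tnfaip3, Ctu2, Psmb9, Psmb8 and Tmem140. Egr1, an immediate early zinc finger factor, was at 14.2, 45.2, 38.1 and 61.7 CPM in heat shock-high cells without cytokines against 70.9, 102, 57.5 and 67.1. With cytokines it was at 18.9, 43.4, 60.4 and 83.7 against 6.29, 8.89, 39.4 and 45.2, a change of 2.23 ± 0.24 (edgeR, adjusted p = 5.4e-18). Egr1 was thus the lower one in 4 of 4 libraries without cytokines and the higher in 4 of 4 with them. Defb1, a β-defensin, gave 1.40 ± 0.15 without and -0.92 ± 0.10 with cytokines. Its change of -2.32 ± 0.18 lost its call against depth-matched cells and without untreated replicate 1 or 2, at -1.57 to -2.83 over all alternatives. Relb, an NF-κB subunit, lost its call under 14 of 18 alternatives, Tnfaip3 under 6 of 19, Ctu2 under 6 of 18 and Tmem140 under 4 of 19.

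HSF1-type genes were raised in heat shock-high cells in both settings, 18 higher and 0 lower of 33 with cytokines and 21 and 0 without, while the change between them was negative for 5 and positive for 1. The excess of Ubb fell by 0.63 on the log2 scale with cytokines, a call lost against depth-matched cells and without the library block, and that of Klf6 fell by 1.62. Klf6 was at 8.93 to 13.4 CPM in other cells without cytokines and 31.2 to 52.1 with them, and at 78.2 to 178 and 80.7 to 267 in heat shock-high cells. Ddit3 (CHOP), a transcription factor of the integrated stress response, was at 174, 329.6, 202 and 175 against 54.1, 114, 103 and 115 CPM without cytokines, higher in 4 of 4 libraries. With them it was at 366, 324, 281 and 189.8 against 588, 501, 236 and 200.4, a change of -1.46 ± 0.14 (edgeR, adjusted p = 7.2e-22). Genes of that response were 6 higher and 2 lower of 24 without and 3 higher and 11 lower with cytokines. Proteasome subunits were 16 higher and 0 lower of 31 without and 0 and 3 with. Over all genes 8.74% were higher and 7.13% lower without cytokines, and 9.9% and 9.25% with them. The 3 lower proteasome subunits with cytokines lie near that share, and the proteasome counts of the mean comparison above turned with the scaling.

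NMMA blocks nitric oxide production, and the comparison of the cytokines with and without it asked which differences of heat shock-high cells moved with the inhibitor. For 116 genes (0.987%) the log2 difference was larger and for 256 (2.18%) smaller under the cytokines alone than under the cytokines plus NMMA. Without the library block 0 genes passed by edgeR, with 1255 at an unadjusted p under 0.05, and under total UMI scaling the split turned to 321 larger and 66 smaller. The 372 genes became 44 without cytokines plus NMMA replicate 1, 121 without cytokines replicate 1 and 124 without cytokines replicate 2. Hmox1, the stress-induced heme oxygenase, was at 82.3 and 90.1 CPM in heat shock-high cells with the cytokines against 506 and 220.2 in the others, and at 438 and 128 against 224 and 100.1 with NMMA added. It was the lower one in both cytokine libraries and the higher in both with NMMA, a change of -2.67 ± 0.31 that was also lost at a threshold of 10 and against depth-matched cells (edgeR, adjusted p = 8.1e-07).

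Klf6 was at 80.7 and 96.6 CPM in heat shock-high cells against 52.1 and 50.2 with the cytokines, and at 267 and 158 against 31.2 and 32.2 with NMMA added (-1.93 ± 0.25). Ankrd33b was at 86.5 and 79.4 against 119 and 90.3, and at 243 and 79.2 against 40.3 and 41.8 CPM with NMMA added, a change of -2.20 ± 0.26 that was lost without cytokines plus NMMA replicate 1. G6pc2, the islet glucose-6-phosphatase subunit that tunes glucose sensing, went the other way. It was at 109.5 and 104 CPM in heat shock-high cells against 73.7 and 79.8 with the cytokines, and at 109 and 145 against 276 and 355 with NMMA added (1.80 ± 0.21; edgeR, adjusted p = 4.4e-13). The 4 heat shock-high values of G6pc2 lay between 104 and 145, whereas the other cells stood higher with NMMA in both replicates.

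Nr4a1 was at 18.1 and 40.9 CPM in heat shock-high cells against 1.95 and 2.32 with the cytokines, and at 24.2 and 34.4 against 11.6 and 20.4 with NMMA added, a change of 2.81 ± 0.45, and its relative Nr4a2 gave 3.43 ± 0.61. The excess of Mafa changed by 1.35 ± 0.21. Irf8, an interferon regulatory factor, was at 5.76 and 1.64 against 19.7 and 17.7 CPM with the cytokines and 73.97 and 31.4 against 23.5 and 18.8 with NMMA added (-3.62 ± 0.53; edgeR, adjusted p = 1.7e-08). These calls were lost without the library block. Ribosomal protein genes had a smaller excess with the cytokines alone for 53 of 95 and a larger one for 0, with 2 under total UMI scaling, 8 at a mitochondrial share of at most 5%, and 0 to 66 when 1 library was left out. Rpl17 was at 2585 and 2854 against 2022 and 2052 CPM with the cytokines and 2659.9 and 2731 against 1292 and 1186 with NMMA added.

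The last comparison stayed within the heat shock-high cells and asked how their own transcripts differed between the conditions, over 8 sums and 6486 genes. Each pool of mice was divided over all conditions, but the main fit did not pair them. The counts with the replicate as a block use that pairing. The values of single genes within heat shock-high cells below are from the fit without it. With the cytokines against untreated 10 genes passed (0.154%) by edgeR, 10 higher and 0 lower, and 81 with the replicate as a block. With the cytokines plus NMMA against untreated 59 passed (0.91%), 56 higher and 3 lower, and 160 with the block. With the cytokines against the cytokines plus NMMA 1 gene passed (0.0154%), and 31 with the block. With NMMA against untreated 0 passed (0%) by edgeR, with and without the block, and 264 genes had an unadjusted p under 0.05, while DESeq2 called 0 with 61 at that p. The untreated side rested on 18 and 48 cells. The count of 10 became 4 without untreated replicate 1, 2 without untreated replicate 2, 19 without cytokines replicate 1 and 112 without cytokines replicate 2. The count of 59 became 22 and 6 without untreated replicates 1 and 2, 36 without cytokines plus NMMA replicate 1, and 118 and 115 without cytokines replicates 1 and 2.

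The interferon response was measurable inside the heat shock-high cells. Of 14 guanylate binding proteins and GTPases tested 4 were higher and 0 lower with the cytokines, and 7 and 0 with the cytokines plus NMMA. Irgm1 was at 3.55 and 5.83 CPM in untreated heat shock-high cells (5 UMIs in all) and 79.9 and 49.9 with the cytokines, a log2 change of 3.53 ± 0.54 (edgeR, adjusted p = 0.0037). The other cells gave 4.35 ± 0.17 for the same comparison. Cd274 changed by 3.06 ± 0.51 in heat shock-high and 5.62 ± 0.23 in other cells, and Irf1, an interferon regulatory factor, by 2.57 ± 0.39 and 3.27 ± 0.13. The difference between the sides was tested only as the change with cytokines, over all 8 libraries, and did not pass for Irgm1 (-0.75 ± 0.42; edgeR, adjusted p = 0.52), Cd274 (-1.38 ± 0.45; edgeR, adjusted p = 0.1) or Irf1 (-0.24 ± 0.26; edgeR, adjusted p = 0.8). Each heat shock-high call was lost at a threshold of 40 per 10000, at a mitochondrial share of at most 5% and without untreated replicate 2, and those of Cd274 and Irf1 also without untreated replicate 1. At the threshold of 40, untreated replicate 1 held 8 heat shock-high cells, under the minimum of 10 per sum, and was left out. The threshold and the libraries thus changed together there.

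Mafa, by contrast, gave -0.60 ± 0.28 with the cytokines in heat shock-high cells, which did not pass (edgeR, adjusted p = 0.74), and -4.06 ± 0.20 in the other cells (edgeR, adjusted p = 2.5e-06). Ucn3 gave -0.53 ± 0.28 and -2.86 ± 0.19, and Slc2a2 -0.70 ± 0.43 and -3.68 ± 0.23. These differences between the sides were tested only as the change with cytokines given above, which averages over the conditions with and without NMMA. The cytokines against untreated alone were not compared between the sides by a test. Psmb8 gave 2.27 ± 0.43 (edgeR, adjusted p = 0.082) against 3.99 ± 0.21, and Ddit3 0.34 ± 0.26 (edgeR, adjusted p = 0.99) against 2.74 ± 0.33. These fits did not pair the conditions by pool of mice. A gene that did not pass in heat shock-high cells is therefore not shown to be unchanged. Between the cytokines and the cytokines plus NMMA the gene that passed was Irf8 (-3.78 ± 0.59; edgeR, adjusted p = 0.043), against -0.16 ± 0.48 in the other cells, and it was lost with DESeq2, at a threshold of 40, at a mitochondrial share of at most 5%, without doublets and without cytokines plus NMMA replicate 1.

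The rule for β-cells bounds the hormone transcripts of other islet cells, so the sums of islet markers are a description. β-cell markers summed to 413355 to 548976 CPM in heat shock-high and 346385 to 471531 in other β-cells. Acinar markers summed to 0 to 35.5 CPM (median 3.94) against 0.185 to 383 (median 28.3), and endothelial, mesenchymal, lymphocyte and Schwann markers stayed at or under 13.4 CPM in heat shock-high cells. Erythroid markers were at 0 on both sides. α-cell markers summed to 178 to 583 against 105 to 788 CPM and δ-cell markers to 9.06 to 94.97 against 31.3 to 138. PP-cell markers summed to 36.2 to 1050.3 CPM (median 169) against 92.3 to 621 (median 237) and were higher in 4 of 8 libraries, the highest value being NMMA replicate 2. Ductal markers, which here were mainly the keratins Krt8 and Krt18, summed to 501 to 1020 CPM (median 688) against 240.3 to 983 (median 454) and were higher in 6 of 8 libraries. Krt8, a keratin that stressed epithelial cells raise, gave 0.93 ± 0.11 without cytokines and changed by -1.22 ± 0.15 with them. The part of these markers in the results was not tested.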

How the data were processed

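Islets of 10 male mice per replicate were pooled, divided over 4 conditions and cultured for 18 h, and single cells were captured in droplets with a cell barcode and a UMI near the 3′ end of each transcript. The kit is named differently in the labels and in the methods of the study. The authors deposited raw UMI counts per gene and barcode for each of the 8 libraries, made with Cell Ranger on mm10, which the submitters' processing notes name without a version. The counts were not normalized. The files listed 31053 genes in replicate 1 and 32285 in replicate 2, and the 30406 gene IDs in both were used. Of the value columns 0 were left out.

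The barcodes were kept, called β-cells and called heat shock-high by the rule given in the report. The members and the gene lists were chosen with earlier results of these data known, so counts over a list are given beside those over all genes and no test was made over a list. UMIs were summed per library and side, leaving out genes whose symbol begins with Hsp or Dnaj, and tested with edgeR 4.0.16 in R 4.3.3 (filterByExpr, TMM scaling, robust quasi-likelihood test) with the library as a block and 1 heat shock-high effect per condition. The comparisons were the mean of the 4 effects, the effects with cytokines minus those without, and the cytokines minus the cytokines plus NMMA. The conditions within heat shock-high cells were compared over their 8 sums without a block, and the other β-cells had a fit of their own. A library entered a fit only with at least 10 heat shock-high cells, which at the alternative threshold of 40 left out untreated replicate 1. Each SE was derived from the log2 value and its F statistic. Benjamini-Hochberg adjustment ran over all genes tested, and 0.05 was the threshold. Shares and cell measures were compared with exact permutation tests over libraries. Doublets were marked as the highest scores of the doublet caller of scanpy 1.11.5, up to an assumed rate, and kept in the main results.

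Named genes were the 12 largest changes in each direction with the same sign in all 8 libraries and at least 10 CPM, the 8 largest in each direction of each difference between conditions whose within-library differences did not overlap between the sets compared, up to 4 members of each list with the smallest p, and genes known from the cytokine response. Some genes that this rule gives are not reported here. Replicates of the same number came from the same pool of mice, and as a check, deviations from the mean of a condition correlated between conditions of the same replicate with r of 0.57 to 0.68 over 1704 genes. Alternatives were Bonferroni adjustment, total UMI scaling, DESeq2 1.42.0, no filter on low counts, thresholds of 10 and 40 per 10000, doublets removed, a mitochondrial share of at most 5%, other β-cells of at most 2 per 10000 or of matched depth (10th to 90th percentile of the heat shock-high cells), the fits with and without the block, and each library left out. The scripts were tested on simulated data.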

Additional observations from a re-analysis of the deposited data

Results flagged for a closer look

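The difference between heat shock-high and other β-cells changed with the cytokines for 482 genes by the test of the change itself. The immediate early and inflammatory regulators among them pointed both ways, with Egr1 at 2.23 and Relb at 2.60 on the log2 scale and Klf6 at -1.62, Gadd45b at -1.78, Jun at -0.55 and Tnfaip3 at -2.16. Genes of mature β-cells changed upward, Mafa by 2.59, Slc2a2 by 2.58, Ucn3 by 2.52, Slc30a8 by 1.30, Ero1lb by 1.23 and Pdx1 by 1.23, and so did Slitrk6 (2.35), Adh1 (2.30) and Socs2 (2.29). Genes of antigen presentation and the interferon response changed downward, Psmb9 by -1.96, Psmb8 by -1.89, H2-T23 by -1.75, Psme1 by -1.53, B2m by -1.34, Bst2 by -1.70 and Tmem140 by -1.79, beside the proteasome subunit Psma7 (-0.84). Stress genes changed downward too, Hmox1 by -1.83, Ddit3 by -1.46, Mt1 by -1.41, Sod2 by -1.13, Fth1 by -0.85 and Ubb by -0.63. The other downward changes described were S100a6 (-2.72), Rnd3 (-2.49), Defb1 (-2.32), Ctu2 (-2.12), Krt8 (-1.22) and Krt18 (-0.77). Calls were lost under 14 of 18 alternatives for Relb, 9 of 19 for Jun, 6 of 19 for Mt1 and Tnfaip3, 6 of 18 for Ctu2, 5 of 19 for Sod2, 4 of 19 for Tmem140 and 3 of 19 for Hmox1 and Defb1. Of the losses with 1 library left out, those without untreated replicate 2 were Relb, S100a6, Defb1, Tnfaip3, Ctu2, Mt1 and Sod2, and those without untreated replicate 1 were Defb1, Mt1, Jun and Sod2. Relb, Tnfaip3 and Jun were also lost without NMMA replicate 1, Relb and Tmem140 without NMMA replicate 2, Ctu2 and Jun without cytokines plus NMMA replicate 2, and Relb without cytokines plus NMMA replicate 1 or either cytokines replicate.

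Between the cytokines and the cytokines plus NMMA the difference changed for 372 genes by the same kind of test, and for 0 without the library block by edgeR (1255 at an unadjusted p under 0.05). Upward changes were Nr4a2 (3.43), Nol4 (2.83), Nr4a1 (2.81), Thap2 (2.53), Pnmal1 (2.49), G6pc2 (1.8), Mafa (1.35) and Cxcl10 (1.25). Downward changes were Irf8 (-3.62), Hmox1 (-2.67), Ankrd33b (-2.2), the zinc exporter Slc30a1 (-2.12), the autophagy gene Atg14 (-2.0), the iron exporter Slc40a1 (-1.95), Klf6 (-1.93), Gadd45b (-1.47), Txnip (-1.42), Mt1 (-0.8), Rpl10 (-0.74) and Rpl17 (-0.71). All 20 calls were lost without the library block. Thap2 was lost under 13 of 18 alternatives in all, Mt1 under 9 of 19, Nol4 under 6 of 18 (1.82 to 10.87), Slc40a1 under 6 of 18, Cxcl10 and Txnip under 5 of 19 and Atg14 under 4 of 18. Without cytokines plus NMMA replicate 1 the calls of Ankrd33b, Gadd45b, Slc30a1, Atg14, Slc40a1, Nol4, Thap2, Txnip and Mt1 were lost, and without cytokines replicate 1 those of Slc30a1, Slc40a1, Thap2, Rpl10, Rpl17 and Mt1. Atg14, Nol4, Thap2 and Pnmal1 were lost without cytokines replicate 2, Thap2 and Rpl17 without cytokines plus NMMA replicate 2, and Mt1 without untreated replicate 1 or 2.

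The median Malat1 share of heat shock-high cells was 1.29% in NMMA replicate 1 and 0.702% to 0.970% in the other 7 libraries, a gap of 0.542 of the whole range against a limit of 0.526 (Dixon's test). The other β-cells of that library were at 1.19%. This was 1 of 21 sets of library values tested, and chance takes about 1 in 20 past that limit.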

How the results depend on the processing

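The counts of genes moved with the strictness of the call, the libraries used and the block. Bonferroni adjustment left 963 of 3154 genes of the mean comparison, 135 of 482 that changed with cytokines, 62 of 372 that changed with NMMA, 736 and 576 with and without cytokines, and 6 and 10 within heat shock-high cells for the cytokines and the cytokines plus NMMA. DESeq2 gave 259, 108, 1368 with cytokines and 28 for the cytokines within heat shock-high cells. A threshold of 10 per 10000 gave 262 for the change with cytokines, and 124, 143 and 4 within heat shock-high cells for the cytokines, the cytokines plus NMMA and the cytokines against the cytokines plus NMMA. A threshold of 40 gave 319 for the change with cytokines, 953 without cytokines and 0 for the cytokines against the cytokines plus NMMA. It left untreated replicate 1 with 8 heat shock-high cells, under the minimum of 10 per sum, so that library was dropped. With 1 untreated library left, counts against untreated are not given for this threshold. Within heat shock-high cells, no filter on low counts gave 107, 159 and 21, with 1 for NMMA. A mitochondrial share of at most 5% gave 176 for the change with NMMA and 0, 39 and 0 within heat shock-high cells. Depth-matched other cells gave 256 for the change with cytokines and 151 for that with NMMA. Total UMI scaling gave 2 and doublet removal 0 for the cytokines against the cytokines plus NMMA.

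The library block pairs the 2 sides of a library, and the replicate block pairs conditions by pool. Without the library block the changes with cytokines and with NMMA came to 107 and 0 genes, and with the replicate as a block the comparisons within heat shock-high cells came to 81, 160 and 31, and 0 for NMMA. With 1 library left out the mean comparison gave 2182 to 2837 genes, the changes 270 to 396 and 44 to 443, the values with cytokines 1381 to 2309 and without 1019 to 1843. Within heat shock-high cells the counts were 2 to 112, 6 to 118, 1 to 9 and 0 to 1. With cytokines the lowest counts were 1381 without cytokines plus NMMA replicate 1 and 1452 without cytokines replicate 2, and without cytokines 1019 without untreated replicate 2. The share difference was 1.79 to 4.44 points, and the cell measures kept 3 to 3 passing, with ratios of 0.647 to 0.692 for UMIs, 0.834 to 0.862 for genes, 0.833 to 0.899 for the mitochondrial, 1.30 to 1.37 for the ribosomal, 1.02 to 1.06 for the insulin and 0.998 to 1.04 for the Malat1 share. At a threshold of 40 the mitochondrial ratio of 0.813 passed, and at 10 the Malat1 ratio was 0.963. The cause of these changes was not tested.

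Of the values of named genes under the alternatives, the mean comparison kept direction and call in 1115 of 1120, the change with cytokines in 594 of 662 and that with NMMA in 299 of 371, and none changed sign in any comparison. Heat shock-high sums of 18 to 59 cells limit the depth of single genes, most of all in untreated replicate 1.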

Other observations

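Further lists were compared between heat shock-high and other β-cells as the mean of the 4 conditions. Over all 11751 genes tested 12.5% were higher and 14.3% lower, and 780 and 3822 genes under total UMI scaling. Counts near these shares do not set a list apart. Genes of p53, cell death and survival were 5 higher and 9 lower of 27 (4 and 12 under total UMI scaling). The cell cycle inhibitor Cdkn1a was at 16.6 to 60.4 CPM in heat shock-high and 24.1 to 99.4 in other cells, lower in 7 of 8 libraries (-0.97 ± 0.12), and the survival gene Mcl1 at 53.3 to 124 against 37.02 to 66.98, higher in 8 of 8 (0.79 ± 0.10; edgeR, adjusted p = 2.5e-13). NF-κB response genes were 4 higher and 3 lower of 24 (4 and 3 under total UMI scaling), with Nfkbiz, a nuclear IκB protein, higher in 8 of 8 libraries at 24.9 to 205 against 12.2 to 77.6 CPM (1.11 ± 0.12). Cytokine receptors and JAK-STAT parts, among them the receptors for IL-1β and IFN-γ, were 1 higher and 4 lower of 21 (0 and 6 under total UMI scaling).

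Exocytosis genes were 4 higher and 7 lower of 18 (3 and 10 under total UMI scaling). Napa, the α-SNAP that takes fusion complexes apart, was higher in 8 of 8 libraries (0.54 ± 0.09), and Ptprn, a membrane protein of insulin granules, was lower in 8 of 8 (-0.32 ± 0.07; edgeR, adjusted p = 6.6e-05). Cytoskeleton genes were 5 higher and 2 lower of 17 (2 and 8 under total UMI scaling), where the tubulin gene Tuba1b was lower in 8 of 8 (-0.79 ± 0.12). Of the nuclear RNAs, Meg3 was higher in 7 of 8 libraries (0.77 ± 0.06) and Kcnq1ot1 lower in 8 of 8 (-0.99 ± 0.08). Trpm5, the calcium-activated cation channel of β-cells, was at 78.5 to 194 CPM against 23.8 to 95.9, higher in 8 of 8 (1.61 ± 0.09; edgeR, adjusted p = 8.5e-66).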
